A study of Homo sapiens with 6 samples.

Results

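HCCLM3, a human hepatocellular carcinoma line grown out of lung metastases, was set against MHCC97L and MHCC97H, the lines it is related to, to describe the genes that set it apart with and without transforming growth factor β1 (TGF-β1). The comparison used all 6 libraries of the series, the 2 of HCCLM3 against the 4 of the MHCC97 lines, with treatment as a term. A gene was taken to separate HCCLM3 when it passed the test and differed at least 2-fold, in the same direction, in all 4 pairs of libraries within a condition (HCCLM3 against MHCC97L and against MHCC97H, in control and in TGF-β1). Of 14586 genes tested, 744 met this rule.

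Each line was grown without ligand (control) or given TGF-β1 at 2.5 ng/mL for 4 h, and its RNA was sequenced once per condition. MHCC97L and MHCC97H come from a single parental tumour line and differ in metastatic potential, which is low in MHCC97L and high in MHCC97H. HCCLM3 was obtained from lung metastases that MHCC97H formed in mice. The labels name no genetic change made to any of the lines and no other agent. Since each line has 1 library in each condition, p values measure the spread between these libraries and not between cultures of a line, and a trait of HCCLM3 cannot be told apart from a trait of this stock of it.

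Metastatic sublines are made by passing tumour cells through an animal and growing out the cells that settled in another organ. Differences between such a subline and its parents can lie in the matrix the cells lay down, in their adhesion and junctions, in secreted growth factors and proteases and in the state of differentiation of the cells. Hepatocellular carcinoma cells often keep part of the hepatocyte programme of plasma proteins, detoxifying enzymes and lipid synthesis, and they lose it in variable amounts.

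Total expected counts (estimated reads per gene) were between 18485041 and 23242862 per library, and the 2 lowest were those of the MHCC97H and HCCLM3 controls. Levels are in CPM, a library's counts scaled to a common total. Differences are log2 of HCCLM3 over MHCC97, given with a standard error (SE) from the fit to all n = 6 libraries. The SE is the size of the difference over the square root of the F value of edgeR's quasi-likelihood test. Adjusted p values come from the same test, adjusted by Benjamini and Hochberg's method over all genes tested. Markers of lung epithelium summed to 1.80 to 2.39 CPM in HCCLM3 and 1.85 to 2.87 in the MHCC97 lines, with the surfactant genes SFTPA1, SFTPA2 and SFTPC and the secretoglobin gene SCGB3A1 at 0 in every library. Of the hepatocyte list, 11 of 32 genes were at 1 CPM or more in both HCCLM3 libraries and 18 in all 4 others, with sums of 320 to 325 and 618 to 729 CPM. Leukocyte markers summed to 12.5 to 13.7 CPM against 13 to 18.2, endothelial markers to 13.7 to 16.7 against 36.8 to 47.0 and fibroblast and stellate cell markers to 35.1 to 39.6 against 12.1 to 20.9. In bulk RNA, fewer cells that express a gene and less of its RNA per cell cannot be told apart.

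Past an adjusted p of 0.05, 3628 genes (24.9% of those tested) differed between HCCLM3 and the MHCC97 lines. Of these, 1875 were higher in HCCLM3 (12.9% of those tested) and 1753 lower (12.0%). The counts of each gene list below are to be read against these shares over all genes. Of the 744 separating genes (5.10%), 308 were higher (2.11%) and 436 lower (2.99%). At 4-fold in all 4 pairs, 74 were higher and 159 lower. Of the 744, 17 were on the hepatocyte or mesenchymal lists. They were 14 of 23 tested hepatocyte genes and 3 of 16 tested mesenchymal genes, against 5.10% of all genes tested. By the test alone, 19 of the 23 hepatocyte genes were lower and 0 higher, with a median of -2.46. Of the 16 mesenchymal genes 10 were higher and 1 lower, with a median of 0.60, against a median of -0.003 over all genes tested. The collagen gene COL3A1 led the mesenchymal list at 6.34 (SE 0.32), and the apolipoprotein gene APOB was at -3.76 (SE 0.33) among the hepatocyte genes. Without the HCCLM3 TGF-β1 library 1199 genes passed, 7 hepatocyte genes were lower and 5 mesenchymal genes higher. Without its control library 1460 passed, 9 hepatocyte genes were lower and 6 mesenchymal genes higher. Scaling by library totals turned the share of calls that were higher from 51.7% to 48.9%.

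**Figure D1:**
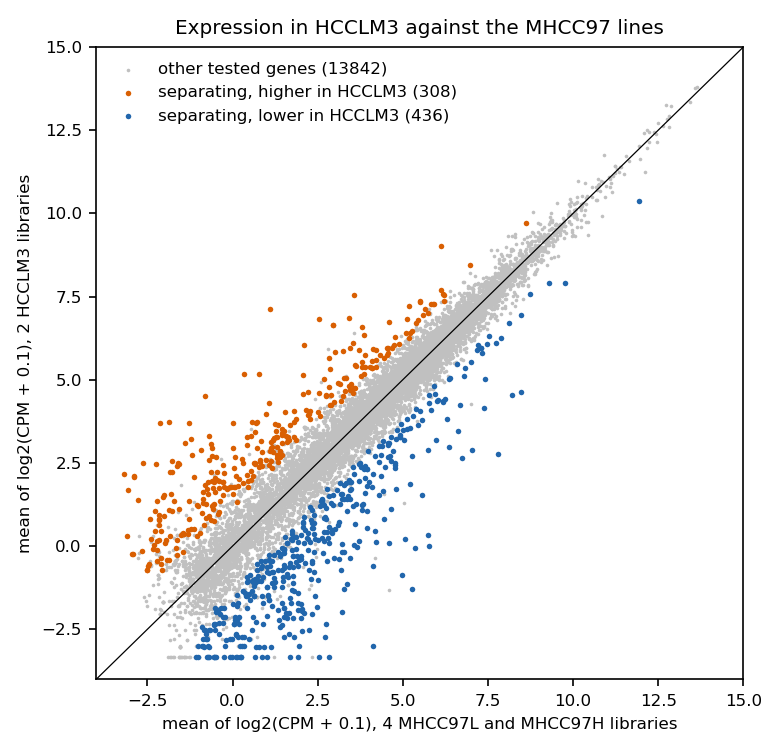
Mean log2(CPM + 0.1) of each tested gene in the 2 HCCLM3 libraries (vertical axis) against the 4 MHCC97 libraries (horizontal axis), with the line of equal expression. The 308 separating genes that were higher in HCCLM3 (orange) and the 436 that were lower (blue) are spread over the range of expression, and the row of blue points at the bottom holds genes with 0 counts in both HCCLM3 libraries.

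The same fold rule without a test was met by 773 genes for HCCLM3 (5.30%), 113 for MHCC97L against the other lines (0.775%) and 55 for MHCC97H (0.377%). With the test added, MHCC97L had 0 separating genes by edgeR's quasi-likelihood test, where 1055 genes had an unadjusted p under 0.05, and DESeq2 gave 49 separating genes. MHCC97H had 1, where 706 passed unadjusted and DESeq2 gave 17. The 3 comparisons share libraries, and the lines that are pooled in each of them differ in how alike they are, so these counts are given side by side only.

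Genes named here for the largest gaps were picked by those gaps, so that their groups stand apart is no added support. Basement membrane and matrix genes were among the largest gains of HCCLM3. COL4A5 (ENSG00000188153.12), which encodes the α5 chain of type IV collagen, the sheet-forming collagen of basement membranes, was at 0.348 and 0.715 CPM in the controls of MHCC97L and MHCC97H, 0.221 and 0.773 after TGF-β1, and 25.6 and 19.7 in HCCLM3 without and with the ligand. Both HCCLM3 libraries lay far above the other 4, a difference of 5.44 (SE 0.25), with an adjusted p of 1.73e-05 by edgeR's quasi-likelihood test. COL4A6 (ENSG00000197565.15), the gene of the α6 chain, was at 0 and 0.143 CPM in the MHCC97L and MHCC97H controls, 0 and 0.0859 after TGF-β1, and 2.91 and 2.19 in HCCLM3, a difference of 5.38 (SE 0.55), so that it was low in HCCLM3 and close to 0 elsewhere. COL4A5 lies at chrX:108439844-108697545 on the plus strand and COL4A6 at chrX:108155607-108439497 on the minus strand (GRCh38, GENCODE 29), so that the pair starts head to head. Their promoter windows (250 bases before to 50 after the start, RefSeq, GRCh38.p14) overlap, and the first transcribed bases lie 380 bases apart. For COL4A6 2 windows are listed, and the first is used here. Which start its reads came from was not tested. They are shown because the 2 genes were higher together, with CG dinucleotides in capitals. COL4A5 is chrX:108439588-108439887, plus strand, with 8 CG, and COL4A6 is chrX:108439409-108439708, minus strand, with 7.
COL4A5: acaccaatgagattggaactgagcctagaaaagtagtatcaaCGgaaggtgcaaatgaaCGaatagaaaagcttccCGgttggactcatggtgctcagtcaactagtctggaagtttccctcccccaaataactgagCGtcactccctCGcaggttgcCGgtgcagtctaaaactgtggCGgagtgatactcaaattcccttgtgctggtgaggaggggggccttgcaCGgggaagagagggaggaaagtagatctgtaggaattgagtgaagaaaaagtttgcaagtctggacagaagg
COL4A6: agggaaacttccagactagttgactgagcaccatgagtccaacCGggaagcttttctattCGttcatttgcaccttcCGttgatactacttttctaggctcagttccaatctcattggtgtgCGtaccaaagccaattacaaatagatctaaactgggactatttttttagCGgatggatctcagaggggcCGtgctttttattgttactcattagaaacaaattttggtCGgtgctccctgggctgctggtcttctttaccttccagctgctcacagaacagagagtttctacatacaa

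VCAN, which encodes the proteoglycan versican, was at 7.97 and 16.4 CPM in the MHCC97L and MHCC97H controls, 8.75 and 16.7 after TGF-β1, and 174 and 199 in HCCLM3. Its groups lay far apart, with a difference of 3.90 (SE 0.35). THBS2, which encodes the adhesion protein thrombospondin 2, was at 0.261 and 0.286, then 0.0884 and 0.172, and in HCCLM3 5.94 and 3.46 CPM, a difference of 4.51 (SE 0.29). In both genes the 2 HCCLM3 libraries lay above all others. OLFML3, a secreted olfactomedin-like protein gene, was under 1 CPM in all 4 MHCC97 libraries and at 5.88 and 7.4 in HCCLM3 (3.99, SE 0.39). EGFLAM encodes pikachurin, a matrix protein that binds dystroglycan. It was at 0.0435 and 1.14 CPM in the MHCC97L and MHCC97H controls, 0.265 and 1.12 after TGF-β1, and 6.94 and 7.55 in HCCLM3, a difference of 3.50 (SE 0.54).

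Of 30 tested collagen and basement membrane genes, 12 were higher and 5 lower, with a median of 0.42. The fibrillar collagen gene COL5A1 was among the 5 that were lower. It had 108 counts over the 4 MHCC97 libraries and 2 in HCCLM3, a log2 ratio of -4.57 with a 95% exact counting interval of -7.63 to -2.68. LAMB2, a laminin chain gene, was higher by 0.90 (SE 0.11). Without the HCCLM3 control library 7 genes of the list were higher and 0 lower, and without its TGF-β1 library 6 and 0. The adjusted p of COL5A1 was then 0.0569 and 0.138 by edgeR's quasi-likelihood test (range over its alternatives 0.00043 to 0.196), and that of EGFLAM 0.0712 and 0.0848 (1.3e-06 to 0.0937). From TGF-β1 libraries alone VCAN had 0.0615 (8.19e-15 to 0.0615), and VCAN, THBS2, EGFLAM and COL5A1 overlap genes on the opposite strand.

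Other genes that were higher had various roles. FSTL5, a follistatin-like secreted protein gene (ENSG00000168843.13, chr4:161383897-162164035, minus strand), was at 0.0871 and 0.381 CPM in the MHCC97L and MHCC97H controls, 0.0442 and 0.344 after TGF-β1, and 13.8 and 12.4 in HCCLM3. Both HCCLM3 libraries lay far above the other 4, a difference of 5.91 (SE 0.32, adjusted p 4.18e-05 by edgeR's quasi-likelihood test). Its promoter window, chr4:162163951-162164250 on the minus strand (GRCh38.p14, RefSeq), holds 11 CG, in capitals.
FSTL5: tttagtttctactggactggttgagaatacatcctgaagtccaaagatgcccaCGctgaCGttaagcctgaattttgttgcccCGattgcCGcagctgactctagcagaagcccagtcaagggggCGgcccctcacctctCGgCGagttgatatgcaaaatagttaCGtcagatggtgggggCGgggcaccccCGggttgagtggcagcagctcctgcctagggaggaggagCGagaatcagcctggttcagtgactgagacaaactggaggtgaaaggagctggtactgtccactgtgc

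ANGPTL2, a secreted angiopoietin-like protein gene, was at 8.97 and 12.0 CPM in the MHCC97L and MHCC97H controls, 16.8 and 20.2 after TGF-β1, and 88.2 and 103 in HCCLM3 (2.77, SE 0.16). PTGS2 encodes cyclooxygenase 2, which makes prostaglandins, and was at 7.66 and 8.67, then 6.15 and 5.89, and in HCCLM3 52.2 and 47.4 CPM. Its difference, 2.82, had an SE of 0.11, and no MHCC97 library came near HCCLM3. SOCS2, an inhibitor of cytokine receptor signalling, was at 1.87 and 3.53 in the controls of MHCC97L and MHCC97H, 0.973 and 2.49 after TGF-β1, and 24.9 and 15.3 CPM in HCCLM3 (3.18, SE 0.28).

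PROX1, a homeobox factor of liver and lymphatic development, was at 0.653 and 2.19 CPM in the MHCC97L and MHCC97H controls, 0.309 and 1.42 after TGF-β1, and 12.3 and 13.3 in HCCLM3 (3.51, SE 0.44). ZBED2, a zinc finger factor gene, was under 1 CPM in every MHCC97 library and at 6.41 and 11 in HCCLM3 (4.79, SE 0.28). ANKRD1, a well known target of the YAP coactivator, was between 1.04 and 1.41 CPM in the MHCC97 libraries and at 7.0 and 13 in HCCLM3 (3.0, SE 0.21). CLIC2, a chloride channel family gene, was between 5.83 and 6.67 in the MHCC97 libraries and at 33.4 and 31.1 in HCCLM3 (2.34, SE 0.11). In each of these 4 genes the HCCLM3 libraries lay above all others, which within a condition the rule that named them requires. FSTL5, ANGPTL2, SOCS2, PROX1 and ZBED2 overlap genes on the opposite strand. CPED1, whose protein has a cadherin-like domain, was at 0.261 and 0.906 in the MHCC97L and MHCC97H controls, 0.177 and 1.33 after TGF-β1, and 11.9 and 8.18 CPM in HCCLM3 (3.88, SE 0.46). Its adjusted p from TGF-β1 libraries alone was 0.0589 by edgeR's quasi-likelihood test (range over its alternatives 2.66e-07 to 0.0589).

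**Figure D2:**
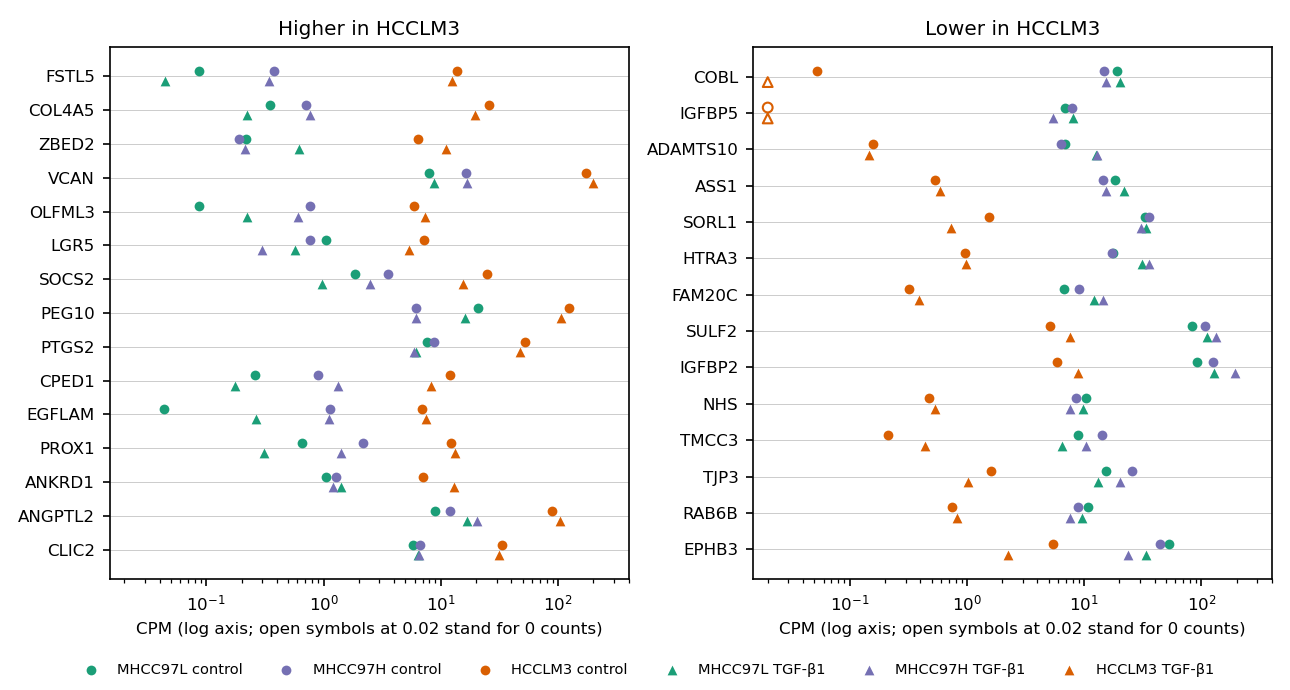
CPM on a log axis in each of the 6 libraries for the 15 genes higher (left) and 14 of the 15 lower (right) in HCCLM3 with the largest smallest gap over the 4 pairs, among genes with whole counts and 5 CPM or more in every library of the higher side, outside the hepatocyte and mesenchymal lists. Circles are controls, triangles TGF-β1 libraries, colours are lines, and open symbols drawn at 0.02 stand for 0 counts. In every one of the 29 genes both HCCLM3 symbols (orange) lie to one side of all 4 MHCC97 symbols. Within each condition this follows from the choice of genes by that gap.

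The largest gains among genes with fractional counts, for which reads may have been shared out with other genes, were in SSX1, FGF13, BCAT1, SPANXB1 and CDCA7L, and these values are uncertain. SSX1, a cancer-testis antigen gene, was at 1.13 and 4.34 CPM in the MHCC97L and MHCC97H controls, 1.02 and 3.35 after TGF-β1, and 131 and 146 in HCCLM3 (5.83, SE 0.48). BCAT1, which encodes the cytosolic enzyme that starts the breakdown of branched-chain amino acids, was under 1 CPM in all 4 MHCC97 libraries and at 13.4 and 12.6 in HCCLM3 (5.25, SE 0.25). FGF13, an intracellular relative of the fibroblast growth factors, stood at 1.26 and 1.81, then 0.619 and 1.25, and in HCCLM3 39.1 and 33.4 CPM (4.89, SE 0.19). The MYC-interacting gene CDCA7L differed by 4.81 (SE 0.28). The call of SSX1 ended with the TGF-β1 libraries alone, at an adjusted p of 0.0916 by edgeR's quasi-likelihood test (range over its alternatives 5.37e-11 to 0.0916).

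The genes that HCCLM3 had at far lower levels included several that act outside the cell. IGFBP5 (ENSG00000115461.4) encodes a binding protein of insulin-like growth factors. It was at 6.84 and 7.91 CPM in the MHCC97L and MHCC97H controls and 7.96 and 5.46 after TGF-β1, and had 0 counts in both HCCLM3 libraries, at least 92.1-fold lower against 3 counts over the 2 libraries (0.0761 CPM). Its neighbour IGFBP2 encodes another such protein and was at 91.3 and 126, then 129 and 194, and in HCCLM3 5.88 and 8.86 CPM, a difference of -4.19 (SE 0.27). IGFBP2 (chr2:216632828-216664436, plus strand) and IGFBP5 (chr2:216672105-216695525, minus strand) lie end to end. The promoter window of IGFBP5, chr2:216695500-216695799 on the minus strand (GRCh38.p14, RefSeq), has 9 CG in capitals and is shown because the gene had 0 counts in HCCLM3.
IGFBP5: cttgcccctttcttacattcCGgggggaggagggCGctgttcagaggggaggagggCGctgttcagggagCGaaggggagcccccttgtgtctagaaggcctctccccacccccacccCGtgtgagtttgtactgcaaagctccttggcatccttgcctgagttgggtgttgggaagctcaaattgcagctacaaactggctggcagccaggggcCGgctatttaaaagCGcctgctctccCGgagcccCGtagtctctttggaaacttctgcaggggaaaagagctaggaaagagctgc

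SULF2, a sulfatase that trims heparan sulfate outside the cell, was at 82.8 and 108 CPM in the MHCC97L and MHCC97H controls, 112 and 133 after TGF-β1, and 5.09 and 7.55 in HCCLM3 (-4.11, SE 0.17). HTRA3, a secreted serine protease gene, was at 17.7 and 17.4, then 30.9 and 35.7, and in HCCLM3 0.954 and 0.974 CPM (-4.71, SE 0.21). Both MHCC97 lines stood higher with TGF-β1 than without for HTRA3, whereas the 2 HCCLM3 libraries were alike. The test of that difference in response did not pass. ADAMTS10, a matrix protease gene tied to fibrillin, was at 6.88 and 6.29 in the controls of MHCC97L and MHCC97H, 12.7 and 12.8 after TGF-β1, and 0.159 and 0.146 CPM in HCCLM3, which is 6 counts over both libraries (-5.95, SE 0.30). FAM20C, the kinase that phosphorylates secreted proteins, was between 6.70 and 14.5 CPM in the MHCC97 libraries and at 0.318 and 0.389 in HCCLM3 (-4.88, SE 0.31).

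Other genes of the 15 that were lower act inside the cell or at its surface. ASS1 encodes argininosuccinate synthase, the urea cycle enzyme that lets cells make arginine, and was at 18.2 and 14.4 CPM in the MHCC97L and MHCC97H controls, 22.1 and 15.5 after TGF-β1, and 0.530 and 0.584 in HCCLM3. The HCCLM3 libraries were far below the others, a difference of -4.96 (SE 0.31, adjusted p 6.9e-05 by edgeR's quasi-likelihood test). COBL, an actin nucleator gene (ENSG00000106078.17, chr7:51016212-51316818, minus strand), was at 19 and 14.7 in the MHCC97L and MHCC97H controls and 20.4 and 15.3 CPM after TGF-β1. In HCCLM3 it had 1 count in the control and 0 with the ligand, a log2 ratio of -9.42 with a 95% exact counting interval of -14.73 to -6.94.

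SORL1, a sorting receptor of the endosome, was between 30.2 and 35.7 CPM in the MHCC97 libraries and at 1.54 and 0.730 in HCCLM3 (-4.89, SE 0.20). TJP3, a scaffold of tight junctions, was at 15.3 and 25.7 in the controls of MHCC97L and MHCC97H, 13 and 20.2 after TGF-β1, and 1.59 and 1.02 CPM in HCCLM3 (-3.83, SE 0.42). EPHB3, an ephrin receptor gene, was at 52.5 and 43.9, then 34.0 and 23.8, and in HCCLM3 5.46 and 2.24 CPM (-3.36, SE 0.23). The ranges of the 2 groups did not overlap in any of these, and the choice of genes by their smallest pair difference set this gap within each condition. NHS, a regulator of cell shape, RAB6B, a Golgi trafficking GTPase, and TMCC3, a membrane protein of the endoplasmic reticulum, differed by -4.14, -3.54 and -4.88, with at most 0.828 CPM in an HCCLM3 library. COBL, IGFBP5, ADAMTS10, SORL1, FAM20C, SULF2, RAB6B and NHS overlap genes on the opposite strand, and the sources used here do not say whether the libraries mark strand, so part of their counts could belong to those genes.

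In all, 7 genes had 0 counts in both HCCLM3 libraries and 1 CPM or more in all 4 MHCC97 libraries, and 0 genes the other way round. The second rule asks for 0 counts in more libraries than the first, so these numbers are not like for like. After IGFBP5 the genes at 0 in HCCLM3 were MPDZ, a scaffold of many PDZ domains, at least 77.8-fold lower, and the transcription factor gene WT1, at least 74.1-fold. NPNT, which encodes the integrin ligand nephronectin, was at least 48.8-fold lower. GPX7, a peroxidase of the endoplasmic reticulum, was at least 42.4-fold lower, and the cancer-testis genes CSAG1 and MAGEA12 at least 26.3-fold and 25.4-fold. NPNT was even across the MHCC97 libraries, at 3.83, 3.86, 3.23 and 3.95 CPM, whereas WT1 was at 9.53 and 6.76 in MHCC97L and 2.81 and 3.27 in MHCC97H. WT1 did not pass the test, with an adjusted p of 0.0768 by edgeR's quasi-likelihood test. MAGEA12, whose counts were not whole, passed at 0.0347. Its adjusted p exceeded 0.05 when any 1 of 4 libraries was left out, at 0.0954 without the MHCC97L control, 0.0869 without the MHCC97H control, 0.109 without the HCCLM3 control and 0.182 without the HCCLM3 TGF-β1 library (range over its alternatives 1.99e-05 to 0.182), and that of CSAG1 was 0.0577 without the last of these (8.24e-06 to 0.0995).

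GPX7 (ENSG00000116157.5, chr1:52602372-52609051, plus strand) starts in a window with more CG than those shown above. Its 30 CG lie near the median of 26 over tested genes with a window (quartiles 17 and 34). The windows shown above all fall below that lower quartile. That of GPX7 is printed for this contrast: chr1:52602121-52602420, plus strand, GRCh38.p14, RefSeq, with 30 CG in capitals.
GPX7: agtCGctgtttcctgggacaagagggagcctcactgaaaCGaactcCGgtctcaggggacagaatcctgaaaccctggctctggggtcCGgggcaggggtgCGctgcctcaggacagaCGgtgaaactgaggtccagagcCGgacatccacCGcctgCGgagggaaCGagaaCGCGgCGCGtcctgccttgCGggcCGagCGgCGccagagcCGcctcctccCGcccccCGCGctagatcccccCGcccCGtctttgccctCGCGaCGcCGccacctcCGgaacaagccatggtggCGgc

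Promoter windows were matched for 10886 of the 14586 tested genes, with a median of 26 CG in 300 bases and 10 or more CG in 85.7% of them. Windows on chromosomes 8 and Y were left out, and chromosome 8 holds 457 tested genes. For a gene with several windows the first listed was used. Of 308 separating genes higher in HCCLM3, 237 had a window, with a median of 14 CG and 10 or more in 60.3%. Of 436 that were lower, 310 had a window, with a median of 22 and 10 or more in 67.4%. Both sets thus held fewer CG-dense starts than all tested genes, and this was not tested.

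Mucins and carcinoembryonic antigen relatives (CEACAM), which coat epithelial surfaces, passed in 1 direction. Of 11 tested mucin and CEACAM genes 5 were lower and 0 higher, with a median of -1.08. Not all of these 5 kept their call when the HCCLM3 TGF-β1 library was left out. MUC5B, a gel-forming mucin gene, was at 50.1 and 55.2 CPM in the MHCC97L and MHCC97H controls, 27.8 and 28.3 after TGF-β1, and 0.477 and 0.195 in HCCLM3 (-6.89, SE 0.19). CEACAM5, which encodes carcinoembryonic antigen, was at 179 and 330, then 160 and 253, and in HCCLM3 6.78 and 6.57 CPM (-5.10, SE 0.47). MUC3A and CEACAM6 differed by -1.99 and -1.08. MUC5B, CEACAM5 and CEACAM6 did not have whole counts.

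Junction genes went both ways, with 6 of 21 lower and 5 higher. Beside TJP3, those lower included CGN, which encodes cingulin of tight junctions, at 175 and 180 CPM in the MHCC97L and MHCC97H controls, 149 and 180 after TGF-β1, and 32.9 and 32.5 in HCCLM3 (-2.39, SE 0.11), and the claudin gene CLDN2 differed by -3.41 (SE 0.20). CLDN4, another claudin gene, was higher by 1.01 (SE 0.09), at 421 CPM against 222 and 205 in the controls and 940 against 416 and 500 with TGF-β1, and DSC2, a desmosomal cadherin gene, by 1.23. Among 15 keratin genes 5 were lower and 2 higher: KRT18, a keratin of simple epithelium, was at -0.52 (SE 0.10). Without the HCCLM3 control library the keratin counts were 0 higher and 1 lower, and without its TGF-β1 library 2 and 0, and junction genes had 3 higher and 4 lower in each case. KRT18 had an adjusted p of 0.0609 and 0.148 in the same order by edgeR's quasi-likelihood test (range over its alternatives 9.01e-06 to 0.171). Without a treatment term CLDN4 had 0.214 (1.24e-22 to 0.214) and DSC2 0.0742 (1.8e-09 to 0.0742).

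Progenitor and oncofetal genes were split, 8 of 20 higher and 5 lower. CD24, which encodes a surface glycoprotein used to mark progenitor-like tumour cells, was at 48.3 and 68.2 CPM in the MHCC97L and MHCC97H controls, 49.3 and 50.1 after TGF-β1, and 1.22 and 1.12 in HCCLM3 (-5.52, SE 0.23). The trefoil factor genes TFF1 and TFF3, which protect mucous surfaces, were both lower by 2.82 on the log2 scale (SE 0.13 and 0.18), and TFF1 went from 56.3 and 51.6 in the MHCC97L and MHCC97H controls to 8.27 in that of HCCLM3. Going the other way, HMGA2, an oncofetal chromatin protein gene, was at 70.4 and 84.1 CPM in HCCLM3 and between 32.0 and 40.7 elsewhere (1.10, SE 0.08). LGR5, the R-spondin receptor that marks intestinal stem cells, was at 1.04 and 0.763, then 0.575 and 0.301, and in HCCLM3 7.26 and 5.40 CPM (3.24, SE 0.26). CD24 and HMGA2 did not have whole counts, LGR5 overlaps TSPAN8 on the opposite strand, and without the HCCLM3 control or TGF-β1 library 5 genes of the list were higher.

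LGR5 is also a target of WNT signalling, and of 22 tested WNT target and regulator genes 10 were higher and 5 lower, with a median of 0.07. NKD1, a feedback inhibitor of the pathway, was at 6.88 and 5.67 CPM in the MHCC97L and MHCC97H controls, 7.07 and 6.57 after TGF-β1, and 21.9 and 24.3 in HCCLM3 (1.82, SE 0.12). The transcription factor gene TCF7 and the ligand gene WNT7B were higher by 1.17 and 1.04. NKD2, its relative, differed by -1.88 (SE 0.44), at 0.212 and 0.389 CPM in HCCLM3 and between 0.973 and 1.31 elsewhere. Leaving out the HCCLM3 control or the TGF-β1 library, 9 genes of the list were higher and 1 lower, and the adjusted p of NKD2 was 0.183 and 0.0957 by edgeR's quasi-likelihood test (range over its alternatives 0.0116 to 0.225).

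**Figure D3:**
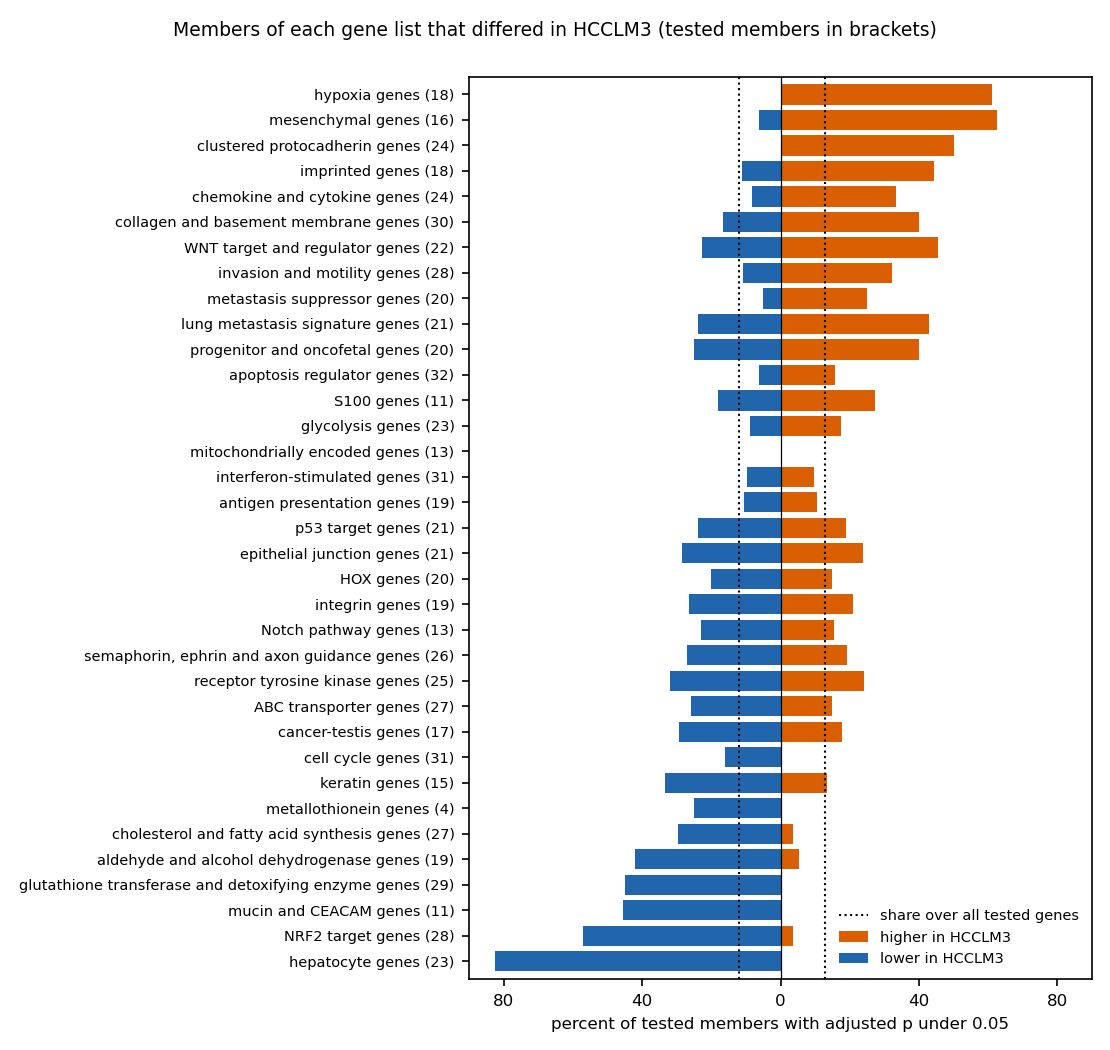
Percent of the tested members of each gene list with an adjusted p under 0.05, higher in HCCLM3 to the right and lower to the left, with the number tested in brackets. Dotted lines mark the share over all 14586 genes (12.9% and 12.0%); hypoxia, mesenchymal and protocadherin lists extend furthest to the right and hepatocyte, NRF2 target, mucin and detoxifying enzyme lists furthest to the left.

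Most calls among genes of redox and drug metabolism were lower. NRF2 is the transcription factor that raises antioxidant enzymes, and 16 of 28 tested NRF2 targets were lower and 1 higher, with a median of -0.38. AKR1B10, an aldo-keto reductase gene often raised in liver cancer, was at 4222 and 4321 CPM in the MHCC97L and MHCC97H controls, 3752 and 3464 after TGF-β1, and 1485 and 1158 in HCCLM3 (-1.58, SE 0.09). HMOX1, which encodes heme oxygenase 1, was at 489 and 499, then 773 and 800, and in HCCLM3 185 and 315 CPM (-1.36, SE 0.08). Both conditions showed the lower level of HCCLM3 in these 2 genes. ME1, which makes NADPH, and AKR1C2 differed by -0.72 and -0.65. TKT, of the pentose phosphate pathway, was the one that was higher, by 0.27 (SE 0.08). Its adjusted p of 0.0383 by edgeR's quasi-likelihood test exceeded 0.05 when any 1 of 5 libraries was left out: 0.124 without either MHCC97L library, 0.0591 without the MHCC97H TGF-β1 library, and 0.104 and 0.299 without the HCCLM3 control and TGF-β1 libraries (range over its alternatives 0.000849 to 0.331).

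Of 29 glutathione transferase and detoxifying enzyme genes 13 were lower and 0 higher, with a median of -0.57. The cytochrome gene CYP2B6 was at 38.1 and 48.2 CPM in the MHCC97L and MHCC97H controls, 34.5 and 42.8 after TGF-β1, and 1.38 and 0.535 in HCCLM3 (-5.44, SE 0.28). CYP26B1, which breaks down retinoic acid, differed by -3.18 (SE 0.29), GSTA1 by -1.86 (SE 0.10) and MGST3 by -0.93 (SE 0.08). Of 19 aldehyde and alcohol dehydrogenase genes 8 were lower and 1 higher: ALDH3A1 was at 975 and 961 CPM in HCCLM3 and between 1589 and 2045 elsewhere (-0.92, SE 0.10), and AOX1, aldehyde oxidase, was the one that was higher (1.88, SE 0.23). ADH1C differed by -6.24 (SE 1.22), with a wide spread among the MHCC97 libraries, from 18.7 to 58.6 CPM. Its adjusted p of 0.0361 by edgeR's quasi-likelihood test rose to 0.189 and 0.0595 without the HCCLM3 control and the MHCC97L TGF-β1 library, and to 0.0859 and 0.193 without the TGF-β1 libraries of MHCC97H and HCCLM3 (range over its alternatives 6.37e-14 to 0.22). CYP2B6, GSTA1, AKR1B10, AKR1C2 and ADH1C did not have whole counts.

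Among 27 cholesterol and fatty acid synthesis genes 8 were lower and 1 higher, with a median of -0.22. The lower ones included the desaturase genes FADS1 and FADS2, which start head to head and differed by -0.53 and -0.90. Of 27 ABC transporter genes 4 were higher and 7 lower. ABCA1, which exports cholesterol, was among those higher, at 52.5 and 67.4 CPM in HCCLM3 and between 15.3 and 22.6 elsewhere (1.70, SE 0.11). Counts fell without a library of HCCLM3: without its control and without its TGF-β1 library, 8 and 7 NRF2 targets, 11 and 9 detoxifying enzyme genes, 5 and 3 dehydrogenase genes, 2 and 3 cholesterol and fatty acid genes and 2 and 1 ABC transporter genes were lower. FADS2 had an adjusted p of 0.0576 and 0.107 then by edgeR's quasi-likelihood test (range over its alternatives 2.91e-08 to 0.125), and FADS1, whose counts like those of FADS2 were not whole, 0.0731 without the control library (5.17e-07 to 0.0794).

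Genes with a reported part in metastasis differed in both directions. Of 20 metastasis suppressor genes 5 were higher (25%, against 12.9% over all genes) and 1 lower (5%, against 12.0%). The lower one was CD82, a tetraspanin gene, at 14 and 8.15 CPM in the MHCC97L and MHCC97H controls, 16.8 and 12.3 after TGF-β1, and 0.795 and 0.974 in HCCLM3 (-3.85, SE 0.38). KISS1, which encodes the peptide metastin, was at 0.221 CPM or less in the MHCC97 libraries and at 1.01 and 1.12 in HCCLM3 (3.34, SE 0.54), and NDRG1, a stress-responsive suppressor, at 497 and 464 CPM against 281 to 342 (0.66, SE 0.10). The list's median was -0.02. Without the HCCLM3 control library 1 gene was higher and without the TGF-β1 library 2, and NDRG1 had an adjusted p of 0.0532 without the first by edgeR's quasi-likelihood test (range over its alternatives 2.57e-08 to 0.0532). From control libraries alone the adjusted p was 0.0511 for CD82 (4.44e-22 to 0.0511), which did not have whole counts, and 0.0758 for KISS1 (0.00108 to 0.0758).

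Of 21 genes of a lung metastasis signature derived in breast cancer 9 were higher and 5 lower, with a median of 0.23. PTGS2, given above, was the clearest gain. ROBO1, a guidance receptor gene, was at 62.2 and 76.8 CPM in the MHCC97L and MHCC97H controls, 48.3 and 58.9 after TGF-β1, and 168 and 146 in HCCLM3 (1.36, SE 0.11). VCAM1, the adhesion molecule through which tumour cells of that signature bind leukocytes, went the other way, at 3.79 and 4.34, then 2.12 and 2.11, and in HCCLM3 0.954 and 0.195 CPM (-2.45, SE 0.33). Of 28 invasion and motility genes 9 were higher and 3 lower, with a median of 0.18. The membrane protease gene MMP14 was at 65.4 and 65.3 CPM in HCCLM3 and between 29 and 38.6 elsewhere (1.02, SE 0.11), and CD44, the hyaluronan receptor gene, was higher by 0.73. MMP7, matrilysin, was lower, at 176 and 165 CPM against 330 to 411 (-1.11, SE 0.12). Without the HCCLM3 control and without its TGF-β1 library 4 and 5 signature genes were higher and 2 and 1 lower, and 2 and 4 invasion genes were higher and 2 and 1 lower. CD44 had an adjusted p of 0.0588 without the TGF-β1 library by edgeR's quasi-likelihood test (range over its alternatives 1.31e-08 to 0.0903), and VCAM1 0.0614 from control libraries alone (6.2e-06 to 0.0614).

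Hypoxia genes were higher, 11 of 18 with 0 lower, by little: the median was 0.41. LOX, which crosslinks collagen, had the largest difference, at 2.13 and 1.72 CPM in the MHCC97L and MHCC97H controls, 5.00 and 3.18 after TGF-β1, and 8.74 and 13.5 in HCCLM3 (1.91, SE 0.21). PFKFB4, a regulator of glycolysis, was higher by 1.01 (SE 0.14) and VEGFA by 0.42 (SE 0.08). Of 23 glycolysis genes 4 were higher and 2 lower (26.1% called, near the 24.9% over all genes), led by the enolase gene ENO2 (1.45, SE 0.15). Of 31 cell cycle genes 5 were lower (16.1%, against 12.0% over all genes) and 0 higher, with a median of -0.09. Calls in either direction were fewer than over all genes, at 16.1% against 24.9%. RRM2 was at -0.82 and CCNB2 at -0.52. As the HCCLM3 control and then its TGF-β1 library was left out, 3 and 5 hypoxia genes were higher and 2 and 2 cell cycle genes lower. Without the TGF-β1 library, PFKFB4 had an adjusted p of 0.0536 (range over its alternatives 6.28e-06 to 0.0847) and VEGFA 0.0914 (2.95e-05 to 0.342) by edgeR's quasi-likelihood test, and without the control library CCNB2 had 0.0694 (5.89e-06 to 0.0947).

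Surface receptors differed in opposite directions within families. EPHB2, a close relative of EPHB3, was at 6.79 and 13.3 CPM in the MHCC97L and MHCC97H controls, 16.2 and 29.8 after TGF-β1, and 63.1 and 103 in HCCLM3 (2.40, SE 0.35), whereas EPHB3 was lower. The ligand gene EFNB1 was lower, at 41.7 and 39.7 CPM in HCCLM3 against 89.3 to 144 (-1.48, SE 0.14). In all, 6 of 25 receptor tyrosine kinase genes were higher and 8 lower, and 5 of 26 semaphorin, ephrin and axon guidance genes higher and 7 lower. UNC5B, a netrin receptor gene, was at 0.371 and 0.438 CPM in HCCLM3 and between 3.62 and 6.15 elsewhere (-3.59, SE 0.38). Among 19 integrin genes 4 were higher and 5 lower: ITGA2, a collagen receptor chain, was higher by 1.39 (SE 0.09), and ITGA11, another, lower by 1.89 on the log2 scale (SE 0.16). EPHB2 had an adjusted p of 0.0865 and 0.0718 without the HCCLM3 control and without its TGF-β1 library by edgeR's quasi-likelihood test (range over its alternatives 6.36e-07 to 0.141), and then 1 receptor kinase gene was higher in each case and 5 and 4 lower, 2 and 1 guidance genes were higher and 4 lower in each case, and 2 and 3 integrin genes were higher and 1 lower in each case. ITGA2 had 0.075 without a treatment term (2.59e-32 to 0.075). EPHB2, ITGA2 and ITGA11 did not have whole counts.

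Of 24 chemokine and cytokine genes 8 were higher and 2 lower, with a median of 0.17. IL11, a cytokine of the interleukin 6 family, was at 2.74 and 1.81 CPM in the MHCC97L and MHCC97H controls, 12.3 and 7.86 after TGF-β1, and 7.10 and 38.2 in HCCLM3 (1.83, SE 0.21), higher in HCCLM3 within each condition though its control lay below the TGF-β1 libraries of the other lines. The growth factor gene CSF2 was higher by 2.59 (SE 0.33) and the eosinophil chemokine gene CCL26 by 1.2 (SE 0.14), and the neutrophil chemokine gene CXCL5 was lower, at 19.2 and 14.2 CPM against 36.2 to 65.5 (-1.47, SE 0.15). Interferon-stimulated genes (3 higher and 3 lower of 31) and antigen presentation genes (2 and 2 of 19) were near the share over all genes. OAS2, an antiviral enzyme gene, was higher by 1.18 (SE 0.11). Counts for cytokines were 3 and 2 higher without the HCCLM3 control and without its TGF-β1 library. IL11, with counts that were not whole, had an adjusted p of 0.0733 without the TGF-β1 library by edgeR's quasi-likelihood test (range over its alternatives 1.32e-09 to 0.208). From control libraries alone CSF2 had 0.0662 (6.94e-05 to 0.0662) and CXCL5, whose counts were not whole, 0.0549 (7.68e-16 to 0.0549).

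Over all genes 24.9% were called. Notch pathway genes (2 higher and 3 lower of 13, 38.5% called) had more calls, in both directions. So did p53 targets (4 and 5 of 21, 42.9%) and S100 genes (3 and 2 of 11, 45.5%). Apoptosis regulators (5 and 2 of 32, 21.9%) and metallothioneins (0 and 1 of 4, 25%) were near the share over all genes. Among p53 targets PHLDA3, a repressor of AKT signalling, was at 8.05 and 7.96 CPM in the MHCC97L and MHCC97H controls, 13.5 and 16.1 after TGF-β1, and 0.530 and 0.876 in HCCLM3 (-4.01, SE 0.22). CDKN1A, which encodes the cell cycle inhibitor p21 and is the best known target of p53, was higher by 1.07 (SE 0.12). S100A2 was higher by 1.33 (SE 0.15), at 98.4 and 124 CPM against 32.3 to 57.4. NOTCH1 and NOTCH2 differed in opposite directions, at -0.66 and 0.44. The call of CDKN1A ended without a treatment term, at an adjusted p of 0.256 by edgeR's quasi-likelihood test (range over its alternatives 1.57e-11 to 0.256), that of NOTCH2 without the HCCLM3 TGF-β1 library, at 0.134 (0.000203 to 0.163), and PHLDA3 and NOTCH2 did not have whole counts.

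Clustered protocadherins, cell adhesion proteins that neurons use to tell themselves apart and that lie in a row on chromosome 5, were higher as a stretch: 12 of 24 tested were higher and 0 lower, with a median of 1.17. PCDHB8 was at 0.653 and 1.29 CPM in the MHCC97L and MHCC97H controls, 1.46 and 1.85 after TGF-β1, and 8.59 and 7.64 in HCCLM3 (2.63, SE 0.27). PCDHB7 was at 0.479 and 0.429, then 0.752 and 1.12, and in HCCLM3 3.39 and 4.28 CPM (2.46, SE 0.27). Their groups did not overlap, but they were picked for the smallest p values of the list. PCDHB15 and PCDHB6 differed by 1.89 and 1.13. From PCDHB4 to PCDHB15 (chr5:141121799-141249365) 11 tested genes in a row were higher in HCCLM3 in all 4 pairs, with a median of 1.5. These genes resemble each other, none of the 4 named had whole counts, and overlaps with unnamed transcripts exist, so the values are uncertain. Leaving out either HCCLM3 library left 5 higher. From control libraries alone the adjusted p of PCDHB15 was 0.0676 (range over its alternatives 8.8e-05 to 0.0676) and that of PCDHB6 0.0513 (2.58e-05 to 0.0513) by edgeR's quasi-likelihood test. The window of PCDHB8, chr5:141177540-141177839 on the plus strand (GRCh38.p14, RefSeq), is shown as 1 example from the stretch and has 9 CG in capitals.
PCDHB8: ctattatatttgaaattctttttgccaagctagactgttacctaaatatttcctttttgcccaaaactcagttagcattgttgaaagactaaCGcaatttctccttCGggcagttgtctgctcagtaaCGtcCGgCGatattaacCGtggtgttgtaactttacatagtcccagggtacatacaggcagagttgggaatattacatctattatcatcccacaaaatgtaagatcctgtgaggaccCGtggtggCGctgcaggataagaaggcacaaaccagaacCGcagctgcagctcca

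Cancer-testis genes, normally read in germ cells and often switched on in tumours, differed in both directions: 3 of 17 were higher and 5 lower, with 2 and 1 lower without the HCCLM3 control and without its TGF-β1 library. Beside SSX1, MAGEC1 was higher, at 1.31 and 1.67 CPM in the MHCC97L and MHCC97H controls, 1.95 and 1.93 after TGF-β1, and 9.43 and 8.28 in HCCLM3 (2.37, SE 0.19), and MAGEA11 by 3.30 (SE 0.49). GAGE1 and GAGE2A, near-identical neighbours, were lower, with 1 and 4 counts in HCCLM3 and between 1.0 and 5.03 CPM elsewhere. Between FGF13 and MAGEC1 (chrX:138614731-141909388) 9 tested genes in a row were higher in all 4 pairs with a median of 4.20, and 8 of them separated the line. Among them were SPANXB1 and, chosen after their values were seen, SPANXC, SPANXA1 and SPANXD, sperm protein genes with differences of 4.45, 4.20, 3.49 and 4.39. SPANXC was at 111 and 118 CPM in HCCLM3 and between 2.96 and 9.75 elsewhere. The SPANX genes are near-identical copies without whole counts, so which copy was read is uncertain. MAGEA11 had an adjusted p of 0.05 from TGF-β1 libraries alone by edgeR's quasi-likelihood test (range over its alternatives 0.000268 to 0.05), and GAGE1 had 0.0525 and 0.086 without the HCCLM3 control and without its TGF-β1 library (1.84e-05 to 0.101).

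Of 18 tested imprinted genes, which are read from the copy of 1 parent, 8 were higher and 2 lower, with 2 and 5 higher without the HCCLM3 control and without its TGF-β1 library, and a median of 0.17. PEG10, a gene derived from a retrotransposon and expressed from the paternal copy, was at 20.8 and 6.20 CPM in the MHCC97L and MHCC97H controls, 16 and 6.14 after TGF-β1, and 124 and 106 in HCCLM3 (3.23, SE 0.57). SGCE, the sarcoglycan gene that starts beside it on the other strand of chromosome 7, was at 6.14 and 3.38, then 5.04 and 2.62, and in HCCLM3 33.8 and 36.0 CPM (3.02, SE 0.27). For both genes MHCC97L lay above MHCC97H and HCCLM3 above MHCC97L. PEG10 lost its call when any 1 of 5 libraries was left out, with an adjusted p of 0.0676 without the MHCC97L control, 0.146 without the HCCLM3 control, 0.0734 without the MHCC97L TGF-β1 library, 0.0675 without that of MHCC97H and 0.165 without that of HCCLM3 by edgeR's quasi-likelihood test (range over its alternatives 3.24e-09 to 0.261). The 2 overlap at their starts, and SGCE did not have whole counts. Of 20 HOX genes 3 were higher (15%, against 12.9% over all genes) and 4 lower (20%, against 12.0%). HOXA11 was higher by 1.96 (SE 0.39) and HOXA13, of the same cluster, lower by 1.5 on the log2 scale (SE 0.24), and with either HCCLM3 library left out 0 HOX genes passed, with 0.147 and 0.113 for HOXA11 (3.42e-06 to 0.147) and 0.0653 and 0.0591 for HOXA13 (1.95e-05 to 0.0902).

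Some stretches of chromosomes held many genes that differed in 1 direction. On chromosome 15, 331 of 449 tested genes (73.7%) were lower in HCCLM3 in all 4 pairs, against 26.5% over all tested genes, and 260 passed the test as lower (57.9%), against 12.0%. The median over the chromosome was -0.47 and lay between -0.50 and -0.43 in each of the 4 pairs, while MHCC97H minus MHCC97L had medians of -0.02 and -0.04 there. On chromosome 3, 424 of 768 genes (55.2%) were higher in all 4 pairs, against 27.4% over all tested genes, with a median of 0.25. Chromosome 7 followed with a median of 0.14. These are medians of a chromosome's genes and were not tested.

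**Figure D4:**
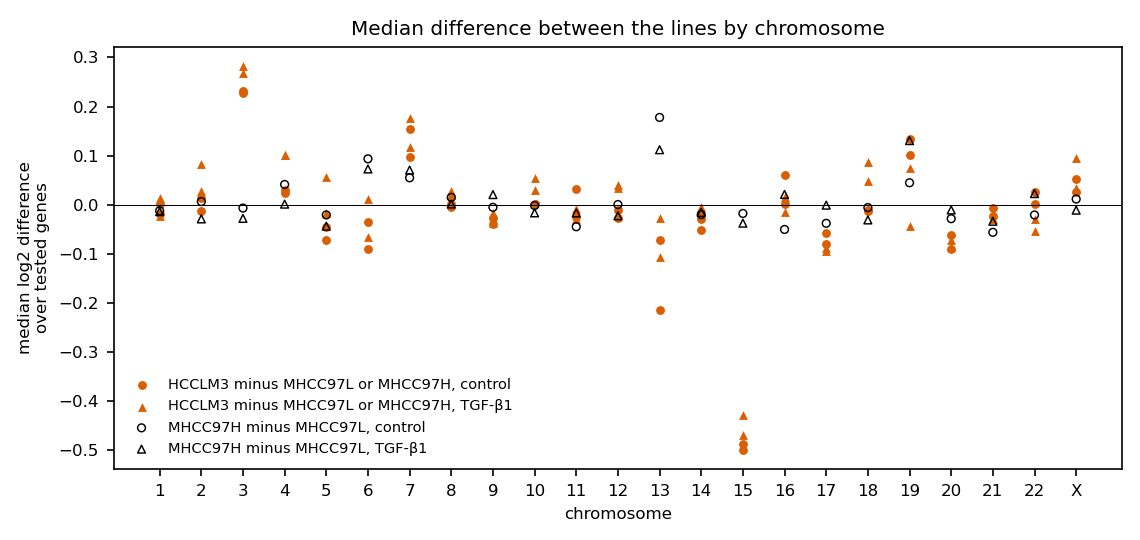
Median log2 difference over the tested genes of each chromosome for HCCLM3 minus MHCC97L and minus MHCC97H (filled) and for MHCC97H minus MHCC97L (open), in controls (circles) and TGF-β1 libraries (triangles). Chromosome 15 lies at -0.50 to -0.43 in the 4 HCCLM3 pairs and near 0 between the MHCC97 lines, and chromosome 3 lies above 0.2 in the 4 HCCLM3 pairs.

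Cut into blocks of 50 consecutive tested genes, the genome gave 262 blocks, of which 12 had a median above 0.3 and 13 one below -0.3. All 8 blocks of chromosome 15 were below. Chromosome 3 changed sign along its short arm: its first block (chr3:3126916-12871916) had a median of -0.60, with 41 of 50 genes lower in all 4 pairs, and the next 6 blocks, which run to base 69052339, had medians between 0.43 and 0.60. The first block of chromosome 2 (chr2:38814-20449445) had a median of -0.89, with 46 of 50 genes lower and 42 past the test, and 4 blocks at its other end (chr2:191245185-238042782) had medians between 0.37 and 0.43. IGFBP2 and IGFBP5 lie in that second stretch, so that their losses run against their neighbours. Single blocks stood out on chromosome 4 (0.39), on chromosome 5 around the protocadherins (0.57) and near its end (-0.59) and on chromosome 17 (-0.34). Between the MHCC97 lines 1 block passed 0.3 in size, the first of chromosome 3, with medians of -0.33 and -0.30 for MHCC97H minus MHCC97L.

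**Figure D5:**
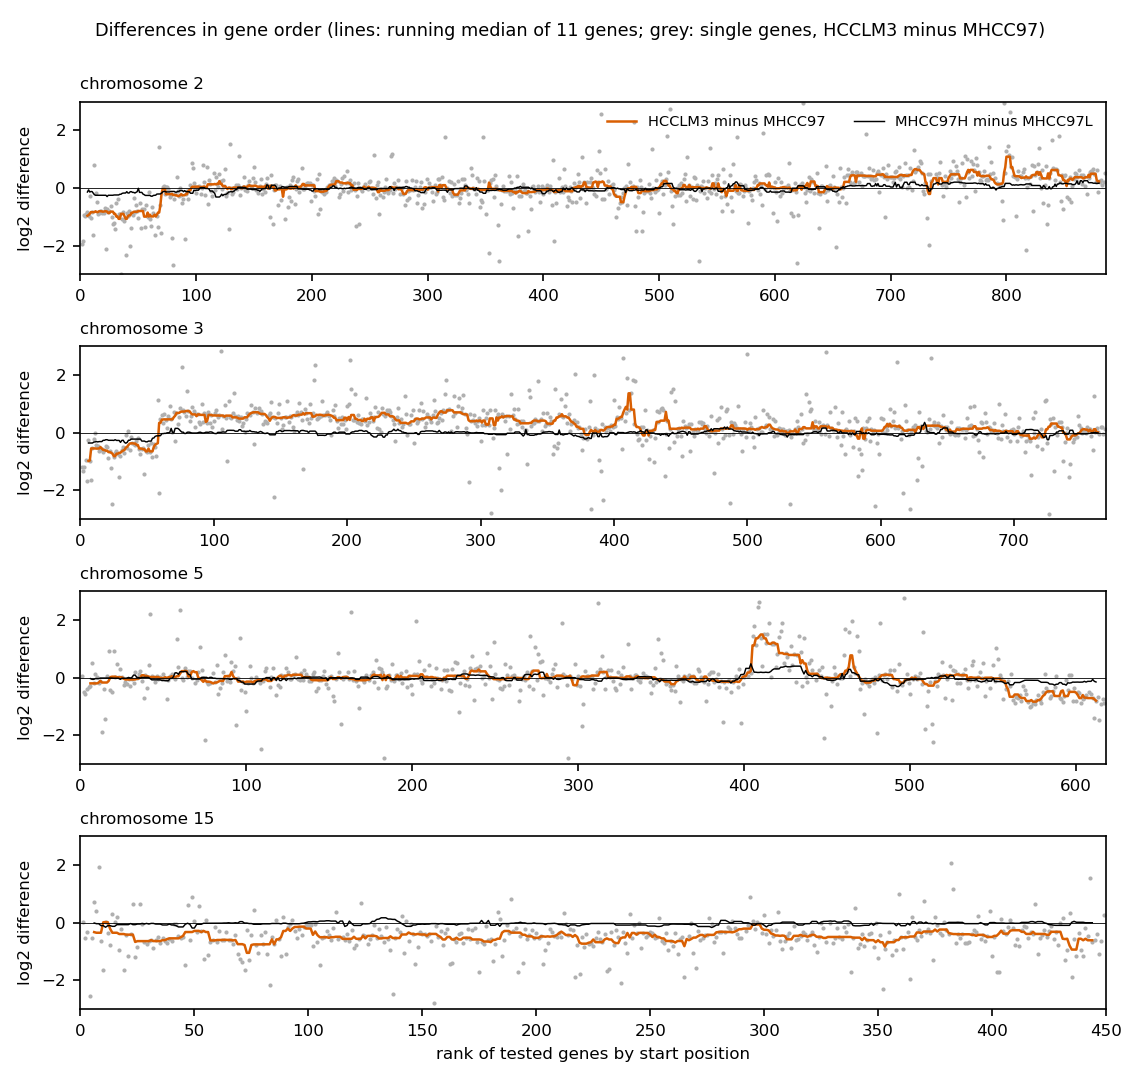
Log2 differences against the rank of tested genes by start position on chromosomes 2, 3, 5 and 15. Grey points are single genes and the orange line is the running median of 11 genes for HCCLM3 minus MHCC97, the black line the same for MHCC97H minus MHCC97L (40 points lie beyond the axis limit of 3). The orange line steps from below to above 0 early on chromosome 3, starts near -0.9 on chromosome 2 and stays below 0 over nearly all of chromosome 15, while the black line lies closer to 0 than the orange line along most of these stretches and dips at the start of chromosomes 2 and 3.

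Runs of 8 or more consecutive genes with the same sign in all 4 pairs numbered 49, of which 30 were higher and 19 lower, and held 597 of 13633 placed genes. Chromosome 15 had 9 lower runs with 133 genes and chromosome 3 had 14 higher runs with 159 genes. The longest, 26 genes from ROCK2 to WDCP (chr2:11179761-24049575), had a median of -0.92, with 24 past the test. It holds APOB, the estrogen-responsive gene GREB1 (-2.98, SE 0.26) and VSNL1, a calcium sensor gene (-2.32, SE 0.20). The next, 24 genes from CA12 to PARP16 (chr15:63321378-65300618), had a median of -0.70 and holds the bile acid transporter subunit gene SLC51B (-2.10, SE 0.13) and CA12, a carbonic anhydrase gene at 255 and 222 CPM in HCCLM3 against 636 to 1122 (-1.88, SE 0.15). A run of 22 genes from USP8 to RAB27A (chr15:50424380-55319113) had a median of -0.55. On chromosome 3, a run of 22 genes from SHISA5 to LAMB2 (chr3:48467798-49133118) was higher with a median of 0.52 and holds the atypical cadherin gene CELSR3 (1.35, SE 0.11) and the anchoring fibril collagen gene COL7A1 (1.51, SE 0.22), and 21 genes from THUMPD3 to VHL (chr3:9362842-10152220) were lower with a median of -0.64 and hold CIDEC, a lipid droplet gene (-2.45, SE 0.10).

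Several genes named above lie on these stretches: CCNB2 and ITGA11 on chromosome 15, RRM2 and APOB on the lower part of chromosome 2, and TKT, PFKFB4 and LAMB2 on the higher part of chromosome 3. For genes with differences of the size of the block medians, a difference of their own and that of their stretch cannot be told apart. COL7A1 had an adjusted p of 0.255 without a treatment term by edgeR's quasi-likelihood test (range over its alternatives 3.71e-06 to 0.255).

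Whether the difference of HCCLM3 changed with TGF-β1 was tested as an interaction of line class and treatment. Past the threshold was 1 of 14586 genes (0.00686%), while 539 had an unadjusted p under 0.05. DESeq2 called 17 and limma-voom 0. That gene has no symbol. With 2 residual degrees of freedom the test has little precision. Its fit had no term for each line, so the difference between MHCC97L and MHCC97H counted as spread. A change with TGF-β1 in the genes above may thus have been missed.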

How the data were processed

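The authors deposited 1 table of expected counts per library, with 22091 gene IDs, of which 12560 held whole numbers in all 6 libraries. The submitters' processing notes name, with no roles, the hg38 build, Cuffdiff 1.3.0, Cufflinks 2.2.1 and TopHat2 2.1.1. The counting tool and strand setting are not given in the sources used here. IDs were matched to symbols and GRCh38 positions in GENCODE 29, and 2517 without a symbol held 2.01% of counts.

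Counts were rounded (totals changed by at most 135), filtered by edgeR's default rule, scaled by TMM and tested with edgeR 4.0.16 (quasi-likelihood, robust) in R 4.3.3, with line class and treatment as terms, all 6 libraries and 3 residual degrees of freedom. A floor of 3 counts was 0.129 to 0.162 CPM per library. Counting intervals cover counting error only. DESeq2 1.42.0, limma 3.58.1 and other settings were alternatives, and the scripts were tested on simulated data. Tables and figures used Python 3.11.15, pandas 2.3.3, numpy 2.4.6, scipy 1.17.1 and matplotlib 3.10.9.

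The comparison and the gene lists were chosen with earlier results of these data known. Genes were named by rule: outside the hepatocyte and mesenchymal lists, the 15 separating genes each way with the largest smallest pair difference among those with whole counts and 5 CPM or more on the higher side, 5 each way without whole counts, up to 4 per list by smallest p with the largest member against a list's majority, up to 3 from each hepatocyte and mesenchymal list, genes at 0 in a group, and genes of the 5 longest runs by position. The blocks of 50 genes, the fold rule with no test and the restriction to unshared symbols were added after seeing the data. Some genes that the rule names are not reported here.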

Additional observations from a re-analysis of the deposited data

Results flagged for a closer look

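The gene without a symbol ENSG00000276725.4 differed in its response to TGF-β1 between HCCLM3 and the MHCC97 lines by the interaction of line class and treatment. It was at 30.1 and 31.7 CPM in the MHCC97L and MHCC97H controls and 39.6 in the HCCLM3 control, and at 37.3 and 33.1 after TGF-β1 in MHCC97L and MHCC97H. The HCCLM3 TGF-β1 library alone was low, at 0.0487 CPM. The difference in response was -9.693 on the log2 scale (SE 0.415), with an adjusted p of 0.00407 by edgeR's quasi-likelihood test. Its counts were not whole, and the difference rests on 1 library.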

How the results depend on the processing

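The 3628 genes that differed between HCCLM3 and the MHCC97 lines became 2256 without a treatment term, 2098 with whole counts only, 774 from control libraries alone and 1696 from TGF-β1 libraries alone, and ranged from 1199 (without the HCCLM3 TGF-β1 library) to 3462 (without the MHCC97H TGF-β1 library) as each library was left out. The 744 separating genes became 387 with a filter of 5 CPM in 2 libraries, 476 with whole counts only, 407 from control libraries alone, 1434 at 1.5-fold and 233 at 4-fold, and ranged from 528 to 819 as each library was left out. Of them, 466 also separated the line without its control library and 408 without its TGF-β1 library. Separating genes of MHCC97L went from 0 to 49 by DESeq2 and 113 by fold with no test, and those of MHCC97H from 1 to 17 and 55. The interaction count went from 1 to 17 by DESeq2 and 0 by limma-voom. No named gene changed direction under the alternatives run, whereas the share of calls that were higher passed from 51.7% to 48.9% with library totals and 49.1% with upper quartile scaling, and list medians near 0 changed sign under some alternatives: metastasis suppressors (-0.07 to 0.08), WNT genes (-0.02 to 0.47) and cytokines (-0.11 to 1.11). Of 186 named genes, 86 lost the call of the main test under at least 1 alternative, most often in fits that left HCCLM3 1 library. Genes with no call in the main test, such as WT1, are not among the 86, and an alternative that did not test a gene was not counted. Low genes are limited by a floor of 3 counts. Replicate numbers gave no pairs, because every group holds replicate 1 only. The main fit did not join a line's control and TGF-β1 libraries. With each line as a term, which joins a line's control and TGF-β1 libraries, 4820 genes differed and 767 separated HCCLM3.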

Other observations

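Other named genes had large differences in response to TGF-β1 that did not pass the test. LSM14A, which encodes a protein of cytoplasmic RNA granules, was at 15.5 and 20.5 CPM in the MHCC97L and MHCC97H controls, 1.41 and 1.03 after TGF-β1, and 9.80 and 12.6 in HCCLM3, an interaction of 4.24 (SE 0.39) with an adjusted p of 0.15 by edgeR's quasi-likelihood test. DDX24, an RNA helicase gene, was at 19.1 and 17.2, then 22.5 and 28.9, and in HCCLM3 34.9 and 8.57 CPM, an interaction of -2.53 (SE 0.28) with an adjusted p of 0.229. Neither gene had whole counts.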
